A study of Mus musculus with 4 samples.

Results

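The proteasome genes of mouse T helper 2 (Th2) cells were taken as every protein-coding gene whose symbol begins with Psma, Psmb, Psmc, Psmd, Psme, Psmf or Psmg followed by a digit, which gave 50 of the 50600 genes in the tables. Th2 cells are CD4 T cells known for secreting interleukin-4 and interleukin-13. RNA came from primary cells of strain C57BL/6NJ in 4 libraries, biological replicates 1 to 4 of 1 group, which the file headers place at 48 hours in a time course of Th1 and Th2 cells. The labels name a CD4 T cell differentiation protocol, give 1 donor identifier for all libraries with a separate biosample for each, and record no age or sex. All p-values therefore measure only the spread between these 4 samples, which may be technical. The assay label names total RNA and the linked library protocol polyA RNA. With 1 group there was no contrast between conditions, and the genes were compared with each other, with the rows opposite them and between libraries.

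The proteasome is the barrel-shaped protease that degrades ubiquitin-tagged proteins. Its core particle stacks rings of alpha subunits (Psma genes) around rings of beta subunits (Psmb genes), which carry the cutting sites, and a cap of ATPases (Psmc) with a lid and base of non-ATPase subunits (Psmd) recognises, unfolds and feeds in the substrate. In lymphocytes and under interferon, Psmb8, Psmb9 and Psmb10 can take the place of the standard catalytic subunits Psmb5, Psmb6 and Psmb7, which makes the immunoproteasome and shifts the peptides offered to MHC class I.

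1 of the 50 genes does not belong to the proteasome. Psmc3ip, the gene of a cofactor of meiotic and homologous recombination, carries the name of the ATPase gene Psmc3 only as an interaction partner, and it is kept apart below. The other 49 comprise 8 alpha, 11 beta, 6 ATPase, 8 lid, 3 base, 5 activator and 1 inhibitor gene and 7 genes of assembly chaperones. Another 4 rows with Psm names were pseudogenes, all with 0 counts. The genes lay on 16 chromosomes, 10 of them on chromosome 11.

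The libraries held 1785970 to 2271993 counts. A row at 0 is compatible with up to 3 counts, which is 1.32 to 1.68 CPM (counts scaled to library size). Intervals and floors reflect counting error alone, because without molecular identifiers several read pairs can stem from 1 molecule. Of the T cell markers, 5 of 6 reached 1 TPM (counts per exon base, scaled to the same sum in each library) in every library, and of the Th2 markers Gata3, Il4 and Il13 did while Il5 had 0 counts. The T cell sum of 188 to 213 TPM lay mostly in Cd247 (168 ± 8.39, SD, n = 4), which shares exon bases with Pou2f1 on the other strand. Cd3d, Cd3g, Cd4 and Lck, without an overlap, had means from 4.29 to 11.5 TPM, and Cd3e, which overlaps Gm48719, 2.33 TPM. Gata3 overlaps Gm13256, while Il4 and Il13 have no overlap. Of the CD8 T cell markers, Cd8a had 1, 0, 0 and 0 counts and Cd8b1 2, 4, 4 and 2. Summed markers of dendritic cells, which also use the immunoproteasome, ranged from 0 to 0.248 TPM with Itgax at 0, and those of B cells from 1.87 to 6.35 TPM, with Cd79a at 14, 8, 4 and 7 counts and Ms4a1 at 0. The macrophage sum of 192 to 205 TPM lay almost wholly in Csf1r (196 ± 5.16, SD, n = 4), which shares exon bases with Hmgxb3 on the other strand. Cd68, without an overlap, also reached 1 TPM in every library, with 2, 3, 5 and 2 counts (1.71 ± 0.710 TPM). Adgre1 was at 0, and Lyz2 had 0, 0, 0 and 1 counts. Whether RNA of other cells added to the proteasome counts was not tested.

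The 50 genes took 3340, 2761, 2753 and 2274 counts in replicates 1 to 4, which was 0.132% ± 0.00997 (SD, n = 4) of all counts. Replicate 1 was highest at 0.147% (95% Wilson interval 0.142 to 0.152), and the intervals of the others, from 0.120 to 0.136, lay below it. Fewer cells with these transcripts and less of the transcripts per cell cannot be told apart in such bulk shares. Without Psmc3ip the mean share was 0.0901% ± 0.0102 (SD, n = 4). In all, 39 of the 50 reached 1 TPM in every library, against 21.8% of all 21764 protein-coding genes, and 17 reached 5 TPM, against 9.65%. The median gene of the group stood at 5.23 TPM, and the median protein-coding gene at 0.115 TPM. Of the rest, 4 never exceeded 3 counts: Psma8, an alpha subunit of the testis, had 0 in every library, Psmb11, the thymus-specific catalytic subunit, had 2, 1, 2 and 2, Psme2b had 0, 1, 0 and 0, and Psmg4 had 1, 0, 0 and 2.

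Exon overlap with a gene of the other strand split the group. In 12 of the 50 genes the exons shared at least 1 base with such a gene, against 22.1% of all protein-coding genes, and these 12 took 55.9%, 59.1%, 64.9% and 60.1% of the group's counts in replicates 1 to 4. Over all protein-coding genes, those with an overlap took 88.3% ± 1.61 (SD, n = 4) of the counts. Psmc3ip alone took 32.1% ± 2.80 (SD, n = 4), and without it the share was 41.2% ± 3.22. The median level was 16.6 TPM with an overlap and 5.04 TPM without, beside 1.35 and 0.0192 TPM over all protein-coding genes. At least 1 TPM in every library was reached by 11 of the 12 and by 28 of the 38 others, beside 2245 of 4801 protein-coding genes with an overlap and 2497 of 16963 without. Among protein-coding genes at that level the median was 11.3 TPM with an overlap and 4.04 TPM without. Of the 10 genes of the group with the highest mean TPM, 6 had an overlap, Psmc3ip among them. With this background, the 6 are not read as particular to proteasome genes. The tables were counted by strand. Whether the setting matches the strand the library kit marks was not tested, nor which transcripts gave the reads of such a pair, so every level here is that of the named row and need not be that of the gene's own transcript.

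**Figure D1:**
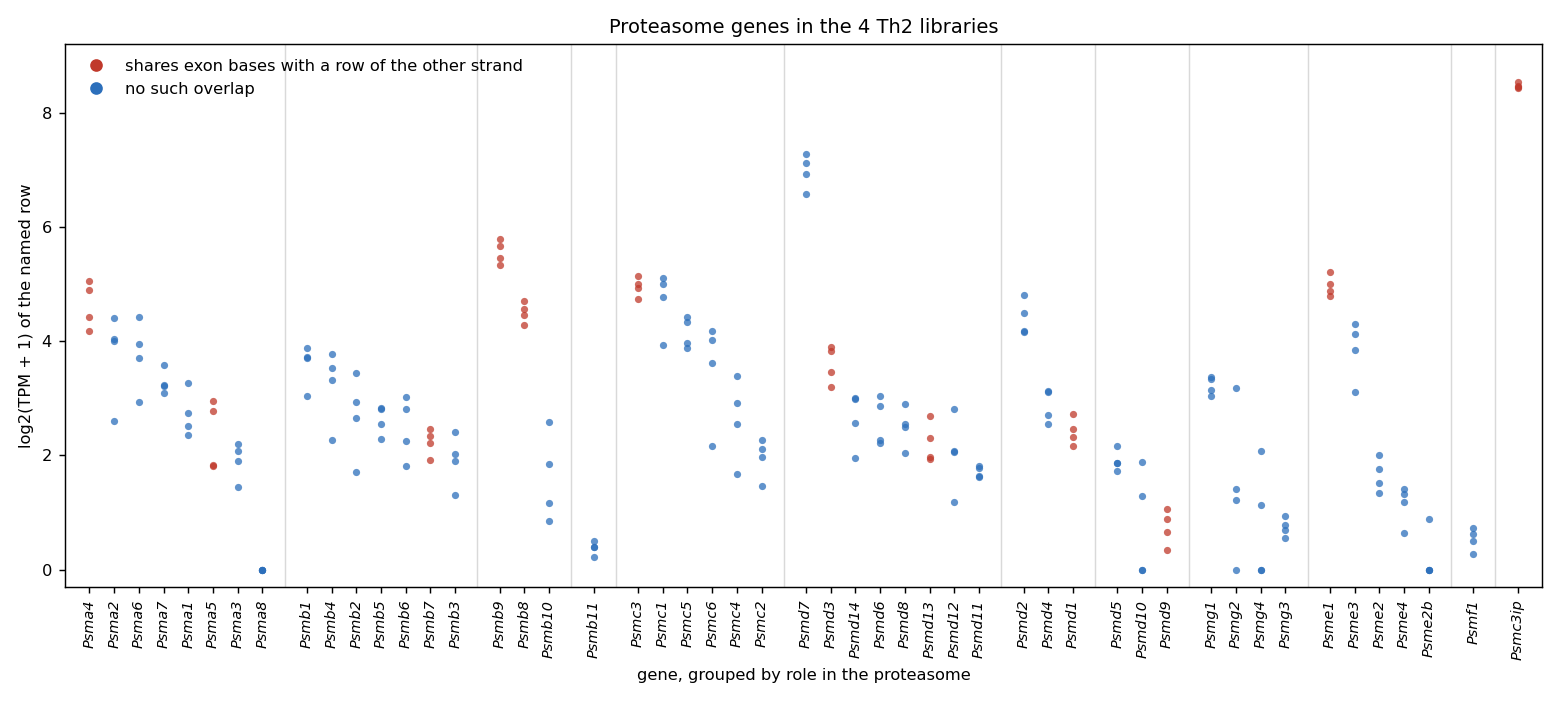
Level of each of the 50 genes as log2(TPM + 1) on the vertical axis, 1 point per library, with genes grouped by role along the horizontal axis and ordered by mean within a role; red marks genes that share exon bases with a row of the other strand and blue those that do not. Psmc3ip, Psmd7 and Psmb9 stand above the rest of the group, and Psma8 is at 0 in every library.

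Among the alpha subunits, which form the outer rings and the gate, 7 of 8 reached 1 TPM in every library. Psma4 was highest, with 116, 69, 60 and 77 counts and 24.7 ± 7.05 TPM (SD, n = 4). Psma2 had 22, 27, 7 and 16 counts (13.9 ± 6.35 TPM) and Psma6 had 38, 21, 12 and 20 (13.3 ± 5.70 TPM). Replicate 3 was the lowest library for all 3. Psma7, Psma1, Psma5 and Psma3 followed, at means from 8.79 down to 2.83 TPM. The subunits occur in equal copies in each particle, yet between Psma4 and Psma3 the assigned levels spanned 24.7 to 2.83 TPM. Psma4 shares 114 exon bases with AY074887 on the other strand, and Psma3 has no such overlap. The part of this overlap in the range was not tested.

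The 7 standard beta subunits all reached 1 TPM in every library and lay closer together, at means from 2.91 TPM (Psmb3) to 11.3 TPM (Psmb1). Psmb1, a structural beta subunit, had 19, 18, 11 and 16 counts, Psmb4 had 31, 25, 11 and 28, and Psmb2 had 18, 9, 4 and 9. Their levels were 11.3 ± 2.83, 9.02 ± 3.78 and 6.01 ± 3.16 TPM (SD, n = 4), so neighbours in this order differed by less than the larger of their SDs. Replicate 3 was again the lowest library for each.

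Of the catalytic subunits, Psmb8 and Psmb9 had more counts per exon base than the standard subunits they replace. Psmb10 lay above Psmb7 only in replicate 1, and with 3 and 2 counts it was at or below the floor of 3 counts in replicates 2 and 3. Psmb8, the inducible chymotrypsin-like subunit (chromosome 17, 34197721 to 34201454, mm10), had 94, 97, 74 and 65 counts, and Psmb5, its standard counterpart (chromosome 14, 54614120 to 54617995), had 8, 6, 5 and 6. Psmb9 (chromosome 17, 34181988 to 34187764) had 237, 205, 292 and 206, and Psmb6, the caspase-like subunit (chromosome 11, 70525367 to 70527858), had 17, 10, 7 and 15. The TPM values of Psmb8 (18.4 to 25.0) did not overlap those of Psmb5 (3.90 to 6.11), nor did those of Psmb9 (39.4 to 54.2) overlap those of Psmb6 (2.54 to 7.11). Psmb10 (chromosome 8, 105935735 to 105938444) had 13, 3, 2 and 5 counts and Psmb7, the trypsin-like subunit (chromosome 2, 38588036 to 38644087), had 21, 22, 14 and 14, with TPM ranges of 0.797 to 5.04 and 2.78 to 4.53 that overlapped.

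As log2 ratios of TPM + 1 within each library, Psmb8 over Psmb5 was 1.88 ± 0.232 and Psmb9 over Psmb6 was 3.09 ± 0.620, both above 0 in 4 of 4 libraries (SD, n = 4). Each had an adjusted p of 0.188 over the 3 pairs (exact two-sided sign-flip permutation test). Psmb10 over Psmb7 was -0.62 ± 0.709, negative in 3 of 4 libraries and positive in replicate 1 (exact p = 0.25, adjusted p = 0.25). The unadjusted p of the first 2 ratios is the lowest that 4 libraries allow, and it lies above 0.05. Leaving out 1 library gave -0.91 (replicate 1) to -0.39 (replicate 2) for the last pair. The 3 inducible subunits summed to 70.5, 65.6, 73.4 and 73.7 TPM in replicates 1 to 4 and the 3 standard ones to 16.1, 13.1, 9.22 and 16.9.

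**Figure D2:**
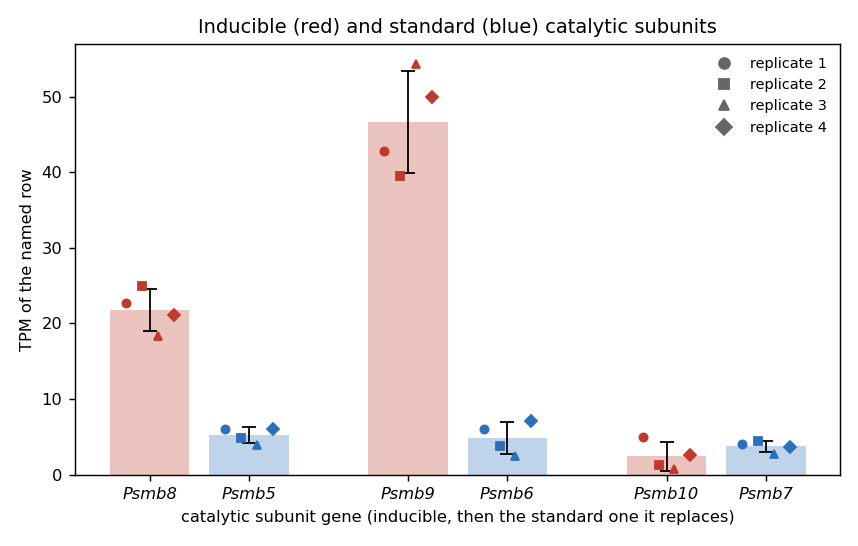
TPM (vertical axis) of the inducible catalytic subunit genes, in red, each beside the standard one it replaces, in blue; bars are means, error bars SD over 4 libraries, and each symbol is 1 library. Psmb8 and Psmb9 lie above Psmb5 and Psmb6 in every library, and Psmb10 and Psmb7 overlap.

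These ratios join genes with and without an overlap. Psmb8 and Psmb9 each share exon bases with a row of the other strand (186 bp with Gm20496 and 212 bp with Tap1). So does Psmb7 (405 bp with Nek6), while Psmb5, Psmb6 and Psmb10 do not. On its own strand Psmb5 shares exon bases with Mir686. The span of Psmb10 overlaps that of Gm16156 on the other strand, without shared exon bases. Gm20496, an antisense row that runs tail to tail into Psmb8, had 8031, 7891, 8482 and 6079 counts. It also shares 165 bp with Tap2, so Psmb8 is not its only partner. Nek6, a kinase gene that meets Psmb7 tail to tail, had 7213, 6960, 6988 and 4858. Tap1, which encodes a subunit of the peptide transporter that serves MHC class I and starts beside Psmb9, had 22, 47, 34 and 32. The ratios compare rows, and the part of these overlaps in them was not tested.

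Promoter sequences are shown for the catalytic genes because Psmb9 and Tap1 start close together on opposite strands. They are the 250 bases before the RefSeq start on GRCm38.p6, which the table gave for Psmb8, Psmb9, Psmb10, Psmb5 and Psmb6 among 42 of the 50 genes, printed 5′ to 3′ on the gene's strand. The annotation used for counting starts Psmb8 (34197721) and Psmb9 (34187764, minus strand) further upstream. Their windows thus lie wholly inside the counted gene spans, and that of Psmb10 in part (5′ end 105938444). Which start was used in these cells was not tested. Capitals mark matches, on either strand, to the gamma-activated site TTCNNNGAA, the antioxidant response element core TGACNNNGC bound by factors such as Nfe2l1, the interferon-stimulated response element core (GAAA, any 2 bases, GAAA), and CCAAT.
Psmb8 (chr17:34197945-34198194, plus strand): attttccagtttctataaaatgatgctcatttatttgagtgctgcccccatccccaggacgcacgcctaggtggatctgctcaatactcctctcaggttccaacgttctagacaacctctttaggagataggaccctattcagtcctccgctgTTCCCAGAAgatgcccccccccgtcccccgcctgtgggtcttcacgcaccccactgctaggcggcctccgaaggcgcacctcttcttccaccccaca
Psmb9 (chr17:34187331-34187580, minus strand): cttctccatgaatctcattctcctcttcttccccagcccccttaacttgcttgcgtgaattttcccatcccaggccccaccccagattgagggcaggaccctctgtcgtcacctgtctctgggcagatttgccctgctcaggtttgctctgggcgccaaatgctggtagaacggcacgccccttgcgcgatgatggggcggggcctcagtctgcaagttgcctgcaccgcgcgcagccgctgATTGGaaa
Psmb10 (chr8:105938393-105938642, minus strand): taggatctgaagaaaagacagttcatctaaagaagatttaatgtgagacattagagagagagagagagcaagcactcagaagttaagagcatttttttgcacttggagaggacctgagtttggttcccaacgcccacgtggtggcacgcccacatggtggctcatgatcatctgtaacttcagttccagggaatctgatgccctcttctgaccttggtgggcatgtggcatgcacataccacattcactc
Psmb5 (chr14:54617996-54618245, minus strand): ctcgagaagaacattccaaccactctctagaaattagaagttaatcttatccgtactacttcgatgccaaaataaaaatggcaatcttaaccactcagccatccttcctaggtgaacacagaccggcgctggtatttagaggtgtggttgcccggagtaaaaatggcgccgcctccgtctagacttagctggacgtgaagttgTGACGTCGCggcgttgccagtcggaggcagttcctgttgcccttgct
Psmb6 (chr11:70525107-70525356, plus strand): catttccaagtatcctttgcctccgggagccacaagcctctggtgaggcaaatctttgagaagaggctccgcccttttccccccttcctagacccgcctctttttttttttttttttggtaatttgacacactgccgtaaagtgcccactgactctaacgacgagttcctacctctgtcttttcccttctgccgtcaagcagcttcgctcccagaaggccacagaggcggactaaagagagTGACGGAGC

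The Psmb8 window held 1 gamma-activated site match, 97 to 89 bases before the RefSeq start, and that of Psmb9 only a CCAAT match on the minus strand of the window. The Psmb10 window held no match to any of the 4 motifs. Psmb5 and Psmb6 each held 1 antioxidant response match, at 47 to 39 and 9 to 1 bases before the RefSeq start. The RefSeq start of Tap1 lies 226 bases from that of Psmb9 on the other strand, inside the printed window. Over all 45 windows of the group, 11.1% held TGACNNNGC, 4.44% TTCNNNGAA, 6.67% the GAAA pair and 33.3% CCAAT, against 10.2%, 7.02%, 2.98% and 33.8% of 32851 windows of all genes. A match is a stretch of letters and not a bound site. Matches of different motifs did not overlap in the printed windows. No window was used for Psma8, Psmb1, Psmb2, Psmb7, Psmc3, Psmd3, Psmd7 and Psmg2.

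The 6 ATPase genes, whose products form the unfolding ring, all reached 1 TPM in every library. Psmc3 was highest at 117, 115, 98 and 101 counts (30.2 ± 3.66 TPM). Psmc1 had 71, 57, 32 and 57 (26.2 ± 8.45 TPM) and Psmc5 had 31, 38, 28 and 32 (17.0 ± 3.30 TPM; all SD, n = 4). Psmc3 and Psmc1 did not differ beyond their spread. Psmc6, Psmc4 and Psmc2 stood at 11.8, 5.78 and 2.96 TPM, with Psmc6 at 36, 38, 8 and 20 counts.

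In the lid and base, which bind ubiquitin and cut it off, all 8 lid and all 3 base genes reached 1 TPM in every library. Psmd7, a lid subunit that pairs with the deubiquitinase Psmd14 (chromosome 8, 107580381 to 107588464), had 527, 387, 457 and 241 counts and 127 ± 25.3 TPM, the highest of the 38 genes without an overlap. Only 27 of the 16963 protein-coding genes without an overlap had a higher mean TPM. The nearest annotated gene of the other strand, Wwp2, lay 21786 bp away and had 12, 4, 10 and 6 counts. Psmd2, a scaffold of the base, followed with 165, 97, 101 and 98 counts (20.6 ± 4.77 TPM), and Psmd3, a lid scaffold, had 105, 58, 97 and 56 (11.4 ± 2.72 TPM). Psmd4, a ubiquitin receptor of the base, had 33, 22, 20 and 24 counts (6.43 ± 1.47 TPM). Psmd14 itself had 21, 28, 12 and 22 counts (5.43 ± 1.95 TPM). Psmd7 thus stood far above its partner in every library, and the other 7 lid genes lay between means of 2.28 and 11.4 TPM.

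Activators dock on the core in place of the cap. Psme1, which with Psme2 forms the interferon-inducible ring PA28 alpha-beta, had 120, 89, 101 and 66 counts (30.5 ± 4.07 TPM), while Psme2 had 5, 6, 4 and 6 (2.21 ± 0.645 TPM). The TPM of Psme1 exceeded that of Psme2 in all 4 libraries. Psme1 shares 14 bp with Emc9, and Psme2 has no overlap. Whether Psme2 and Psme2b share reads, which the counting could leave out, was not tested. Psme3, the nuclear PA28 gamma, had 83, 56, 33 and 55 counts (14.0 ± 4.79 TPM) and Psme4, the large activator PA200, 21, 18, 7 and 12. The inhibitor gene Psmf1 had only 4, 6, 2 and 4.

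The chaperones that assemble the particle were low within the group, with medians of 1.94 TPM (core) and 1.03 TPM (base) against 5.23 TPM for all 50 genes. Over all protein-coding genes the median was 0.115 TPM, and 21.8% reached 1 TPM in every library. Of the 4 chaperone genes of the core, 1 reached 1 TPM in every library, Psmg1 (19, 15, 18 and 11 counts, 8.39 ± 0.993 TPM, SD, n = 4). Psmg2 had 13, 2, 0 and 2 and Psmg3 had 4, 3, 2 and 2. Of the 3 chaperones of the base only Psmd5 did, with 29, 27, 37 and 19 counts (2.77 ± 0.492 TPM). Psmd10, also known as gankyrin, had 6, 3, 0 and 0 and Psmd9 had 3, 6, 9 and 9. Psmg2 and Psmd10 were highest in replicate 1 and at 0 in replicate 3.

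Summed, the rows of the other strand held more counts than the proteasome genes they overlap, though not in every pair. The 12 opposite rows took 18226, 17615, 18489 and 13161 counts, or 0.803% ± 0.0469 of all counts (SD, n = 4), against 0.0793% ± 0.00279 for the 12 proteasome genes. In every library most counts of the opposite rows lay in Gm20496 and Nek6. The same sum was not made over all protein-coding genes. In 6 of the 12 pairs the opposite row had the higher TPM in every library, in 4 the proteasome gene did, and in 2 the order changed between libraries. Over all 5464 pairs of a protein-coding gene and an opposite row the shares were 48.6% and 25.3%, so the split among proteasome genes was near the background. That background was not matched in level: 870 of its 4801 protein-coding genes had 0 counts in every library.

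Where the opposite row was denser, the gap was mostly large. Beside Gm20496 and Nek6 these were AY074887, which shares 114 bp with Psma4 head to head and had 1359, 1103, 1273 and 894 counts, and Gm12356, a transcript inside the span of Psmd3 with 17 shared bp, which had 922, 952, 976 and 718. The TPM of AY074887 was 35.8 to 65.4 times that of Psma4, that of Gm12356 124 to 231 times that of Psmd3, that of Nek6 101 to 159 times that of Psmb7 and that of Gm20496 336 to 473 times that of Psmb8. Emc9, a subunit gene of the ER membrane protein complex, had 533, 520, 601 and 479 counts, and its TPM was 3.98 to 6.50 times that of Psme1. Gm26745, which shares 1849 bp with Psmd9, had 2, 7, 6 and 3, so that pair was near the floor on both strands.

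In the reverse direction stood Psmc3ip, Psmb9, Psmc3 and Psmd1. Psmc3ip (chromosome 11, 101091823 to 101095436) had 972, 889, 987 and 715 counts and 354 ± 10.7 TPM, and Mlx, a transcription factor gene that runs tail to tail into it with 385 shared bp, had 66, 68, 66 and 46. Slc39a13, a zinc transporter gene that shares 215 bp with Psmc3, had 20, 8, 17 and 14. Htr2b, a serotonin receptor gene inside the span of Psmd1 with 252 shared bp, had 10, 15, 5 and 8, against 50, 58, 37 and 33 for Psmd1. By TPM, the order changed between libraries for Sirt3 (46, 44, 41 and 28 counts), a mitochondrial deacetylase gene, against Psmd13 (28, 14, 14 and 15). It also changed for 1700010K24Rik (2, 0, 0 and 2) against Psma5 (5, 11, 5 and 10). By counts, Sirt3 was above Psmd13 and 1700010K24Rik below Psma5 in every library. The counts of 1700010K24Rik, a row of 226 exon bases, all lay below the floor of 3 counts. Sirt3 also shares 418 bp with Ric8a, which had 201, 171, 193 and 151. By geometry, the opposite row was denser in 2 of 5 head-to-head pairs and 3 of 5 tail-to-tail pairs. It was denser in 1 of 2 pairs with the row inside the span of the proteasome gene. No split by geometry was made over all pairs, so these counts are not read as an effect of orientation.

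**Figure D3:**
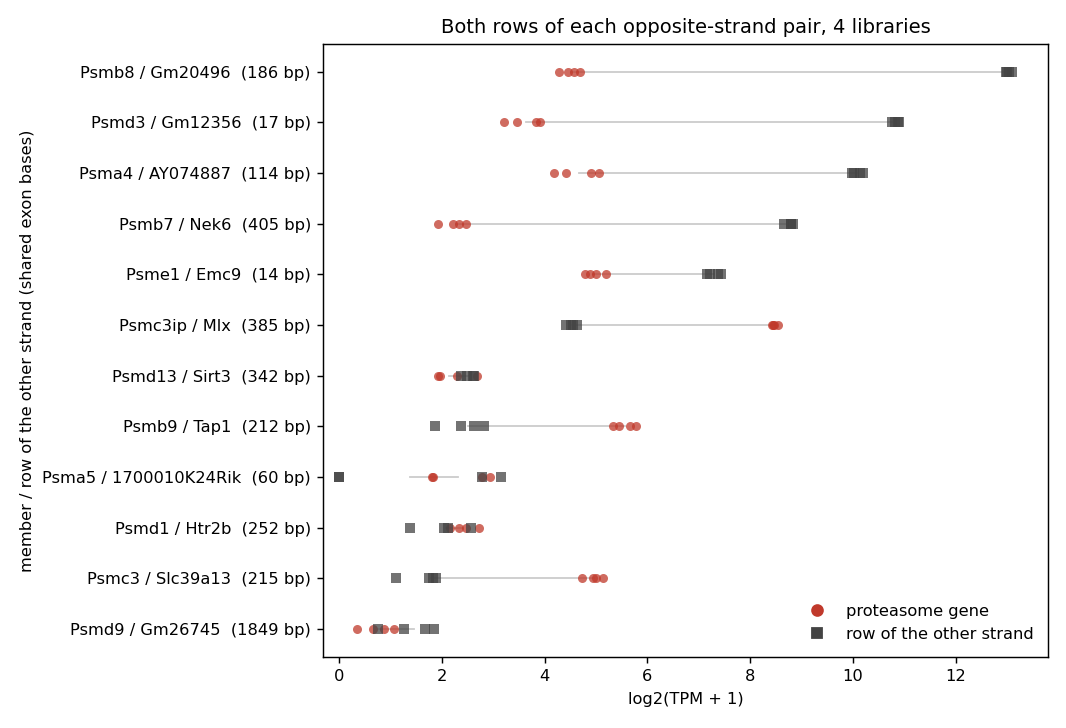
log2(TPM + 1) of each proteasome gene with an exon overlap (red circles) and of the row opposite it (grey squares), 1 point per library, with the shared exon bases in brackets; grey lines join the medians. The rows opposite Psmb8, Psmd3, Psma4, Psmb7 and Psme1 lie to the right of the gene in every library, and those opposite Psmc3ip, Psmb9 and Psmc3 to its left.

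The 38 genes without an exon overlap in the deposited annotation also had none in the later release GENCODE vM21. In 6 of them (Psma3, Psma6, Psmb10, Psmd5, Psmd14 and Psme4) the gene span still overlapped that of a row of the other strand, without shared exon bases. Only the first such row found was taken for each gene. Of these rows, Gm16156, whose span overlaps that of Psmb10, had most counts, with 555, 587, 639 and 493. Another 7 genes had a row of the other strand within 300 bp: Psmc2 lay 32 bp from Dnajc2 (140, 112, 100 and 73 counts), Psma7 76 bp from Ss18l1 and Psma2 205 bp from the mitochondrial ribosomal gene Mrpl32, each beyond the 5′ end. Psmc5 lay 59 bp from Smarcd2, a chromatin remodelling gene, beyond the 3′ end. Psmc2 itself had 29, 21, 13 and 19 counts. For the 6 and the 7 genes, no share over all protein-coding genes was computed.

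Summed over the 38 genes without an overlap, replicate 3 had the lowest level. Their share of all counts was 0.0648% in replicate 1 (95% Wilson interval 0.0616 to 0.0682), 0.0534% in replicate 2 (0.0504 to 0.0566), 0.0438% in replicate 3 (0.0411 to 0.0466) and 0.0508% in replicate 4 (0.0476 to 0.0542). Replicate 1 was highest. Over all protein-coding genes without an overlap the shares were 6.90%, 6.24%, 4.93% and 6.13%, in which replicates 3 and 1 were again the extremes, and the proteasome genes held 0.878% ± 0.0473 (SD, n = 4) of that class. Of the 30 such proteasome genes with at least 5 counts on average, 24 had their lowest CPM in replicate 3, against 56.3% of 3879 protein-coding genes. The 12 genes with an overlap held 0.0822%, 0.0773%, 0.0811% and 0.0765% of counts, in which replicate 3 was not the lowest. What set replicate 3 apart was not tested.

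**Figure D4:**
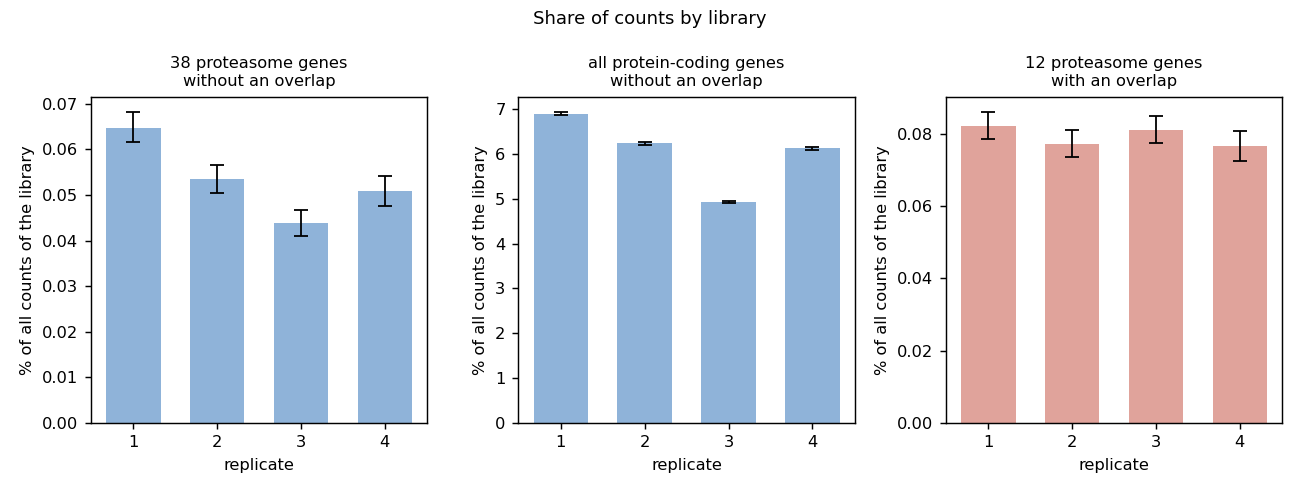
Percent of all counts of each library (vertical axes, 1 bar per replicate) held by the 38 proteasome genes without an overlap, by all protein-coding genes without an overlap and by the 12 proteasome genes with one; error bars are 95% Wilson intervals for counting error. Replicate 3 is lowest in the first 2 panels, at 0.0438% and 4.93%, and not in the last.

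No proteasome gene passed the test for variation between libraries beyond genes of like abundance. The edgeR goodness-of-fit test over 5064 genes called 23 (0.454%) at an adjusted p under 0.05, and 0 of the 28 proteasome genes that passed its filter on low counts. At an unadjusted p under 0.05 it was 4 of 28 (Psme3, Psmd7, Psmb4 and Psmc1), against 5.13% of all genes tested. The lowest adjusted p, by edgeR with Benjamini-Hochberg adjustment, was 0.756, for Psme3. With DESeq2 size factors the counts were again 0 and 4. The 23 became 12 without replicate 3 and 7 without replicate 4, and the 0 remained 0 in both. The other 22 proteasome genes did not pass that filter.

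Of 12 further subunits and partners of the proteasome outside the Psm names, 6 reached 1 TPM in every library, against 21.8% of all protein-coding genes. They were led by the deubiquitinase gene Uchl5 (40, 41, 24 and 27 counts, 8.18 ± 1.86 TPM), Txnl1 (4.53 ± 2.08 TPM) and Akirin2, which brings proteasomes into the nucleus (4.08 ± 1.93 TPM). Sem1, a small lid subunit, stood at 3.49 ± 1.27 TPM, the assembly factor Pomp at 2.30 ± 0.260 and the ubiquitin receptor Adrm1 at 1.53 ± 0.492 (SD, n = 4). The median of the 12 was 1.46 TPM, between the 5.23 TPM of the 50 proteasome genes and the 0.115 TPM of all protein-coding genes.

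Of 11 ubiquitin and shuttle genes 10 reached 1 TPM in every library, against 21.8% of all protein-coding genes. Among them were the ubiquitin fusion gene Rps27a (25.1 ± 6.44 TPM, 160 bp with Clhc1) and the polyubiquitin gene Ubb (20.7 ± 5.50 TPM, no overlap). Of 9 genes of the axis that drives proteasome transcription 4 did, beside the same 21.8%. They were Stat3 (11.6 ± 2.52 TPM), Syvn1 (10.6 ± 1.25) and Vcp (4.55 ± 0.695), each with an overlap, and Nfe2l1. Nfe2l1, the factor that raises proteasome genes when the protease is short, had 17, 24, 21 and 17 counts (2.64 ± 0.434 TPM).

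Class I loading genes act on the peptides that the proteasome makes, and interferon signals induce the immunoproteasome. Of 12 loading genes 10 reached 1 TPM in every library, with the chaperone gene Calr at 71.5 ± 16.0 TPM, B2m at 28.6 ± 8.30 and H2-K1 at 23.7 ± 3.74 (SD, n = 4), none with an overlap. Of 13 interferon genes 2 did, the kinase genes Jak2 (25.1 ± 9.63 TPM) and Jak1 (2.23 ± 0.643), followed by the receptor gene Ifngr2 (1.16 ± 0.436). Over all protein-coding genes the share was 21.8%, so 2 of 13 is not read as a result about interferon genes. Jak2 had 231, 237, 85 and 145 counts and varied between libraries (edgeR adjusted p = 0.00249), with replicate 3 lowest. Ifng had 1, 0, 1 and 0 counts. The interferon response factor gene Irf1 had 9, 10, 0 and 4 counts, and it shares 135 bp with Gm17334.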

How the data were processed

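The authors deposited, for each library, a table of raw counts per gene: read pairs with both ends mapped, counted by featureCounts 1.4.6-p4 with strand setting 1 over the exons of each gene of GENCODE vM13, per the file headers. The labels give mm10. Reads were aligned with STAR, judging by the name of the input file, in a version that the sources used here do not give. Per the headers there was no option for reads of several places or genes, so near-identical copies and same-strand overlaps (4 genes of the group) may lose reads. Exon lengths come from the same deposited tables. GENCODE vM21 gave names and types, and 224 identifiers were unmatched.

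TPM was computed from counts and length. For variation between libraries, all genes were fitted in edgeR 4.0.16 with limma 3.58.1 (R 4.3.3): an intercept, TMM factors, filterByExpr and trended dispersion, with the goodness-of-fit p-value adjusted by Benjamini-Hochberg. The script was tested on simulated data. Ratios used a pseudocount of 1 TPM. Alternatives were another pseudocount, scaling, filter or dispersion, a minimum overlap, and each library left out. By rule, values in each library are given for the catalytic genes, those with an overlap, the 10 highest and the 3 highest of each role (lid and base as 1 role, all beta subunits as 1, all chaperones as 1). The 3 highest genes of each pathway list are also named, except items that are not reported here. Other genes and the neighbouring rows were named after their values were seen. The members and lists were chosen with earlier results of these data known. DESeq2 1.42.0 gave alternative size factors. Tables, intervals and plots were made in Python 3.11.15 with SciPy 1.17.1, Matplotlib 3.10.9, numpy 2.4.6 and pandas 2.3.3. Signal tracks were not analysed here.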

Additional observations from a re-analysis of the deposited data

How the results depend on the processing

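The 3 ratios of catalytic subunits kept their sign under a pseudocount of 0.1 TPM, TMM-normalized FPKM, a floor of 3 counts for both genes and without each replicate. No test of them could pass 0.05 in this design. Genes called as varying were 32 with a common dispersion, 15 with no filter on low counts and 7 to 20 without each replicate, against 23, and 0 proteasome genes in each. Proteasome genes detected in all libraries fell from 39 to 17 at 5 TPM. The share of proteasome counts in genes with an overlap was 53.6% with at least 100 shared bases and, added after the data were seen, 41.2% without Psmc3ip, against 60.0%. The share of all counts was 0.143% without ribosomal RNA rows, 0.0896% as TPM and 0.0901% without Psmc3ip, against 0.132%. The pairs with a denser opposite row were 4 of 9 at 100 shared bases and 6 to 7 without each replicate. No share over all pairs was computed at these settings. Depth limits the low genes: 36 of 50 averaged at least 10 counts. No paired analysis was possible because the series has 1 group, so no groups share replicate numbers; the ratios pair genes within a library, not samples.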
